A study of Mus musculus with 4 samples.

Results

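The 10 genes described here, Acsm2, Ifna9, Prss32, Prss30, Epor, Zp1, Sftpc, Hand1, Aanat and Lsr, are best known from tissues other than the hippocampus, such as kidney, ovary, lung, heart and the pineal gland. They were chosen by the measured signals of these same 4 arrays, because a probe set of each gave a steep slope over the hours or a large difference from the 1 h array. Every slope and fold change of theirs is therefore given as a description, with no test. A probe set is the group of short DNA probes that reports 1 transcript on an Affymetrix array, and a gene can have several. They are 10 of 8251 genes that have a probe set with 1 symbol. The platform annotation pairs 14 of the 12422 non-control probe sets with these symbols alone: 6 genes have 1 probe set and 4 (Prss32, Hand1, Aanat and Lsr) have 2. Another 2 probe sets list Ifna9 among several interferon genes.

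Total RNA came from CA1, a field of the hippocampus rich in pyramidal neurons, of young male C57BL/6J mice, an inbred strain. All 4 samples were controls: the mice were handled and received no other treatment, and their RNA was taken 1, 2, 4 or 6 h after shocked mice, which are not analysed here, had their last shock. With a single sample and array per hour, differences between hours cannot be set against replicates, and the small number of arrays limits precision throughout. The number of mice behind a sample is not stated in the sources used here.

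A short oligonucleotide array gives a number for every probe set, whether or not the transcript is there. Part of that number comes from other transcripts that bind the same probes and from stray signal. In a dim probe set this part can be as large as the signal itself, so on a log scale small shifts appear as large folds. A gene with several probe sets offers a check, because probe sets that report 1 transcript should move together, unless they bind different transcript forms. Signals here are linear and in the units deposited by the authors. The yardsticks were the 20th percentile of all non-control values pooled over the arrays, a signal of 36.9, and the 40th percentile, a signal of 116.6. Values under 36.9 were raised to it before log2 was taken, and 7233 probe sets with a mean log2 at or above that of 116.6 were kept as bright enough to compare.

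Brain transcripts were bright, and the 2 h array stood apart from the others. The neuronal transcript Snap25 had a signal of 18884 ± 858 (SD, n = 4 arrays) and the astrocyte enzyme Aldoc had 10099 ± 1495 (SD, n = 4). Of 12 neuron and glia markers on the array, 10 passed the filter and none of these ranged 4-fold. Wfs1, a marker of CA1 pyramidal cells, had 2293, 1877, 2484 and 2508. Camk2a, a kinase of excitatory neurons, did not pass on the brighter of its probe sets, with 41.0, 351, 195 and 43.3. Of 12 choroid plexus, vessel and meninges markers on the array, 9 passed the filter, with a median range of 1.74-fold. At 2 h 5 of these 9 were higher than at 1 h, 2 of them at least 2-fold. The choroid plexus marker Ttr was the 1 of the 9 that ranged 4-fold or more. It ranged 8.30-fold, with 222, 892, 108 and 356 at 1, 2, 4 and 6 h. Gapdh, whose 3' probe set is set against its 5' one as a measure of RNA quality, had a 3' to 5' ratio of 4.10, 1.08, 3.62 and 3.95 at those hours. The same ratio for beta-actin was 2.27, 1.72, 2.59 and 2.93, also lowest at 2 h but by much less. The 9 probe sets for transcripts added at hybridisation gave 1.13, 0.715, 1.14 and 1.02 times their own mean. A line over the hours was called by limma in 0 of 7233 probe sets, or 0% (Benjamini-Hochberg adjusted p under 0.05), with 196 at an unadjusted p under 0.05. Without the 2 h array it called 32, from 1 residual degree of freedom.

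Of the 14 probe sets, 11 passed the filter and 3 (the dimmer ones of Hand1, Aanat and Lsr) did not. Of those 11, 8 had at least 1 array under the 40th percentile. By comparison, 14.02% of all 7233 probe sets kept had such an array. The 3 exceptions were the brighter probe sets of Prss32, Hand1 and Aanat. The other 8 were chosen for a wide change and had a mean near the filter. An array under it was therefore bound to occur in them, and the contrast is no finding about these genes. For 4 probe sets (Acsm2, Ifna9, Prss30 and Epor) the other 3 arrays averaged under the filter, so they were kept because of their 1 highest array. The same was true of 5.09% of all those kept. The 4 had to differ between arrays to be kept at all.

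**Figure D1:**
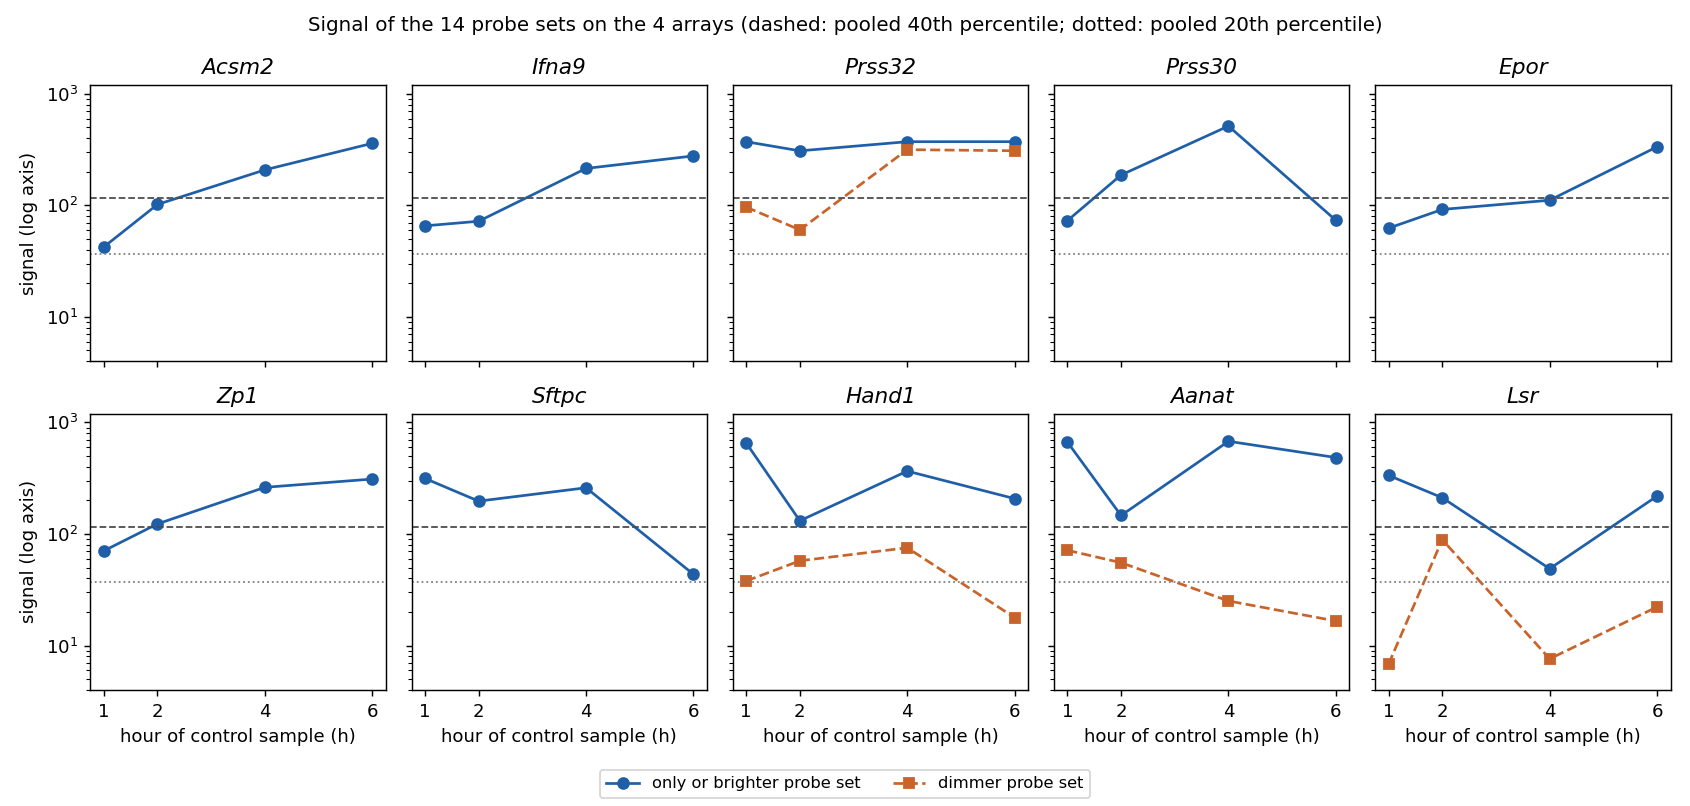
Signal (log axis) of each probe set at 1, 2, 4 and 6 h, 1 panel per gene and 1 array per hour; the dashed line marks the pooled 40th percentile (116.6) and the dotted line the pooled 20th (36.9). Solid lines with circles are the brighter or the only probe set of a gene, broken lines with squares the dimmer one; most lines cross the dashed line, and the probe sets of 1 gene do not run in parallel.

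Among the signalling genes, Ifna9 encodes a type I interferon, an antiviral cytokine that infected cells secrete. Its probe set had 65.5, 72.0, 214 and 277 at 1, 2, 4 and 6 h. The 1 and 2 h arrays were under the 40th percentile and the 4 and 6 h arrays above it. The slope was 0.46 ± 0.09 log2 per hour (SE of the line, 4 arrays), and the signal was 4.23-fold higher at 6 h than at 1 h. The name of this probe set ends in _f, a mark for probes shared within a family of similar sequences, and interferon alpha genes form such a family. The 2 probe sets that list Ifna9 with other interferon genes did not repeat this. They had 92.5, 58.0, 37.7 and 58.5, and 24.5, 20.7, 32.0 and 14.6, all under the 40th percentile.

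Among other interferons and the genes they induce, those that passed the filter were not 2-fold above 1 h at 6 h, and some dimmer ones were. Of 8 other interferon genes on the array, 2 passed the filter: Ifna5 had 198, 453, 144 and 368.5, and Ifnab had 193, 240.3, 319.9 and 243. The probe sets of Ifna2, Ifna4, Ifna5, Ifna7 and Ifnab also have names ending in _f. Their signals may therefore not be separate from each other or from that of Ifna9. Among all 8, the signal at 6 h was at least 2-fold above 1 h for Ifna4 (2.54-fold) and Ifnb1 (2.33-fold), both too dim to pass. Of 15 receptor and response genes, 5 passed, and 0 of these 5 were 2-fold above 1 h at 6 h. Over all 15 there were 2, the antiviral genes Mx1 (2.74-fold) and Mx2 (2.48-fold), and 1 was at least 2-fold below. The interferon-induced gene Ifi27 had 1359 ± 93.1 (SD, n = 4) and the receptor gene Ifnar1 had 400.5 ± 51.5 (SD, n = 4). Irf7, which amplifies the interferon response, had 275, 277, 119.9 and 314.5. The median log2 difference of the 5 genes at 6 h against 1 h was 0.20, beside 0.02 over all 7233 probe sets.

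Epor is the receptor through which erythropoietin keeps red cell precursors alive, and low levels are also known from brain. Its probe set had 62.4, 91.9, 111 and 335. The 6 h array alone was above the 40th percentile. The signal there was 3.01 times the next highest, and 5.36 times that at 1 h. The slope was 0.45 ± 0.10 log2 per hour (SE of the line, 4 arrays) and 0.26 without the 6 h array.

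Partners of Epor that passed the filter did not repeat its 6 h signal, and a dimmer one, Stat5b, did. Of 11 genes of erythropoietin signalling on the array, 7 passed the filter and 0 of these 7 were 2-fold from 1 h at any hour. Stat5b, a transcription factor that the receptor activates, had 38.1, 45.8, 117 and 135, which is 3.55-fold higher at 6 h than at 1 h, but did not pass. Of the 11 it was the one at least 2-fold above 1 h at 6 h, and the inhibitor gene Socs3 was the one as far below. In bulk tissue, fewer cells of a type and less RNA per cell cannot be told apart. Jak2, the kinase bound to the receptor, had 253, 207, 249 and 343, and the survival gene Bcl2l1 had 1841 ± 40.3 (SD, n = 4). The feedback inhibitor gene Socs2 had 478, 606, 757 and 744. Of 11 erythroid genes, 7 passed, with a median log2 difference at 6 h against 1 h of 0.03. The haemoglobin gene Hba-a1 had 3105, 2452, 2378 and 2220.2, highest at 1 h, where Epor was lowest. Slc4a1, the anion exchanger of red cells, had 91.7, 179, 123 and 255, and like Epor was highest at 6 h. The summed signal of the 11 erythroid genes was 7640.0, 7876, 6380.4 and 6681, and its part in the values of Epor was not tested.

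Lsr encodes a lipoprotein receptor of liver that also seals the corners where epithelial cells meet, and it is known from the endothelium of brain vessels, so it is not strictly foreign to the tissue. The brighter probe set had 335, 211, 48.8 and 219. The 4 h array stood alone under the 40th percentile, 6.87-fold lower than at 1 h. The dimmer probe set had 6.8, 89.0, 7.6 and 22.2, all under the 40th percentile and 3 of them under the 20th. Its highest array was 2 h, not 1 h, so the 2 probe sets did not share a pattern.

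Few genes that work beside Lsr were low at 4 h. Of 14 epithelial and tight junction genes, 4 passed the filter, and 0 of these 4 were 2-fold from 1 h at any hour. Over all 14, 0 were at least 2-fold below 1 h at 4 h. Cldn5, the claudin of brain endothelium, had 419, 324, 620.3 and 457, highest at the hour where Lsr was lowest. Tjp1, a scaffold of tight junctions, had 1314, 900.3, 1113 and 786. Of 9 lipoprotein uptake genes 7 passed, with a median log2 difference at 4 h against 1 h of 0.06. Apoe, the main lipoprotein of brain, had 22097 ± 2761 (SD, n = 4), and Lpl, which frees fatty acids from lipoproteins, had 426, 209, 242 and 339, lower at 4 h than at 1 h by less than 2-fold. Over all 9, the lipoprotein gene Apob was at least 2-fold below 1 h at 4 h, with 86.9, 12.0, 3.9 and 92.3.

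Among the enzymes, Acsm2 activates medium-chain fatty acids and is known from kidney and liver. Its probe set had 42.3, 102, 208 and 359.7. Each later array was higher than the one before, and the 1 and 2 h arrays were under the 40th percentile. The slope was 0.59 ± 0.10 log2 per hour (SE of the line, 4 arrays), and the signal was 8.50-fold higher at 6 h than at 1 h, the largest of these 14 probe sets. Leaving out 1 array at a time gave slopes between 0.46 and 0.73.

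Other transcripts of kidney and liver were mostly dim. Of 17 on the array, 11 were under the 40th percentile on all 4 arrays and 2 passed the filter. Albumin, Alb, had 91.1, 108, 180.2 and 142, and the liver enzyme Cyp2e1 had 269, 278, 289 and 134, lowest at 6 h where Acsm2 was highest. Over all 17, Apoa1, a lipoprotein of liver and gut, was at least 2-fold above 1 h at 6 h, with 28.3, 25.3, 38.1 and 106, and 2 genes were at least 2-fold below. The summed signal of the 17 was 1038, 951, 1397 and 961 at the 4 hours, so it did not climb with the hours as Acsm2 did.

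Aanat carries out the step that sets the nightly rhythm of melatonin in the pineal gland, which lies near the hippocampus but outside it. The brighter probe set had 667, 146, 677 and 484, 4.56-fold lower at 2 h than at 1 h. The 1, 4 and 6 h arrays lay within a 1.40-fold band and the 2 h array alone fell outside it. All 4 arrays were above the 40th percentile. The dimmer probe set, designed from the same accession, had 71.4, 55.3, 25.1 and 16.6, all under the 40th percentile, and was not lowest at 2 h. The brighter one has a name ending in _g, a mark for probes that it shares with another probe set.

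Other pineal genes were mostly dim. Of 12 pineal and photoreceptor genes on the array, 8 were under the 40th percentile on all 4 arrays, and 2 passed the filter. Crx, a transcription factor of pineal and retina, had 81.1, 274, 174.5 and 172, highest at 2 h where Aanat was lowest, and the dopamine receptor gene Drd4 had 285, 399, 390.1 and 296. Over all 12, 3 were at least 2-fold above 1 h at 6 h (Crx and the dim photoreceptor genes Pde6a and Pde6b), and at 2 h 1 was as far below 1 h, the retinal factor Nrl with 92.0, 7.2, 48.1 and 22.1. The summed signal of the 12 was 931, 1237, 1047 and 1099.8. The low signal of Aanat lay on the array with the lowest 3' to 5' ratios of Gapdh (1.08) and beta-actin (1.72). Whether what sets that array apart moved Aanat was not tested.

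Prss30 and Prss32 encode trypsin-like serine proteases, which cut proteins outside the cell. Prss30 had 72.8, 187, 513 and 73.4. The 4 h array was 7.05-fold higher than 1 h, while the 6 h array was back within 1.01-fold of 1 h. The dimmer probe set of Prss32 had 96.4, 60.3, 316 and 308.5, under the 40th percentile at 1 and 2 h and 3.27-fold higher at 4 h than at 1 h. The brighter one had 372, 308, 372 and 372, a range of 1.21-fold.

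Among other serine proteases and mast cell proteases, those that passed the filter did not share the 4 h level of these 2 genes, and a pair of dimmer ones did. Of 16 proteases of mast cells, gut and pancreas, 5 passed the filter, and 0 of these 5 were 2-fold above 1 h at 4 h. Over all 16 there were 2, the mast cell and basophil proteases Mcpt8, with 51.8, 23.7, 133 and 154, and Mcpt2, with 11.8, 58.7, 82.3 and 26.5. Mcpt8 was high at 4 and 6 h like the dimmer probe set of Prss32. The chymotrypsinogen gene Ctrb1 had 549.9, 774, 902 and 916, and the mast cell tryptase gene Tpsb2 had 247, 322, 231 and 92.0. Prss8, an epithelial protease, had 104, 79.1, 114 and 233, highest at 6 h. For the 5 that passed, the median log2 difference at 4 h against 1 h was 0.00, beside 0.02 over all 7233 probe sets.

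Zp1 and Sftpc encode secreted structural proteins. Zp1 is a glycoprotein of the coat around the egg, and its probe set had 70.5, 123, 262 and 311. It was under the 40th percentile at 1 h and higher on each later array, 4.41-fold at 6 h against 1 h, with a slope of 0.43 ± 0.10 log2 per hour (SE of the line, 4 arrays). Of 9 other egg coat and oocyte genes 3 passed the filter, and these did not follow it: Zp2 had 211, 177, 129 and 237. Gdf9, a growth factor of oocytes, had 395.5 ± 10.1 (SD, n = 4), and Dazl, a germ cell RNA-binding protein, had 173, 153, 141 and 118. Bmp15, another growth factor of oocytes, was too dim to pass but followed Zp1, with 29.4, 39.2, 79.6 and 126, and was the one of the 9 at least 2-fold above 1 h at 6 h.

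Sftpc is the surfactant protein that marks the alveolar type 2 cells of lung. Its probe set had 315, 197, 259.5 and 43.5. The 6 h array stood alone under the 40th percentile, 7.23-fold lower than at 1 h. The slope was -0.49 ± 0.23 log2 per hour (SE of the line, 4 arrays), but -0.05 without the 6 h array. Of 7 other lung genes 2 passed the filter. Ager, a receptor abundant in lung, had 378, 83.0, 176 and 412, highest at 6 h where Sftpc was lowest, and Cyp2f2 had 120.4, 87.7, 106 and 173. Over all 7, 0 were at least 2-fold below 1 h at 6 h, and Scgb1a1, a secretory protein of the airways, was 3.50-fold above.

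Hand1 is a transcription factor that shapes the heart and the trophoblast of the placenta. The brighter probe set had 655, 131, 366 and 207, 4.99-fold lower at 2 h than at 1 h and 3.16-fold lower at 6 h. All 4 arrays were above the 40th percentile. The dimmer one had 37.9, 57.5, 75.2 and 17.8, all under it and with the 4 h array highest. The low 2 h signal lies on the array that stood apart, and its part was not tested.

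Heart and trophoblast genes that passed the filter did not share this, and a dimmer one, Ascl2, did. Of 15 on the array 5 passed the filter, and 0 of these 5 were 2-fold below 1 h at any hour. Over all 15, 2 were at least 2-fold below 1 h at 2 h: Ascl2, a transcription factor of trophoblast, with 139.7, 48.5, 63.4 and 39.4, and the cardiac troponin gene Tnnt2, with 123, 57.9, 54.0 and 119. As for Hand1, the highest array of Ascl2 was 1 h, and its 2 and 6 h arrays were low. At 2 h 3 others of the 15 were at least 2-fold above 1 h. The myosin gene Myh7 had 405, 477, 615 and 539, and the cardiac actin gene Actc1 had 429, 289.6, 381 and 324. Nppa, the atrial natriuretic peptide gene, had 71.5, 278, 239.6 and 259, so the 1 h array was its lowest, whereas it was the highest of Hand1.

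Read against all probe sets kept, counts past 2-fold among the 11 were high by the way the genes were chosen. At 2 h 2 of the 11 were at least 2-fold above 1 h (Acsm2 and Prss30), beside 6.9% of 7233, and 2 were as far below (Hand1 and Aanat), beside 3.28%. At 4 h 5 were above (3.66%) and 1 below (2.52%), and at 6 h 5 were above (3.72%) and 2 below (2.79%). A range of at least 4-fold over the 4 arrays was seen in 10 of the 11 and in 4.53% of all kept. The one exception was the brighter probe set of Prss32. Without the 1 h array 5 of the 14 probe sets ranged that far, and without the 6 h array 6 did.

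Wide ranges were most common among probe sets just under and just above the filter. When the 12422 probe sets were ordered by mean log2 signal and divided into 10 equal parts, 8 of the 11 fell in the fifth part, with geometric means of 106 to 172. No probe set of the first or second part, where the floor removes most of the range, ranged 4-fold, while 8.37% of the third and 29.4% of the fourth did. In the fifth part 21.1% of 1242 probe sets ranged at least 4-fold, compared with 7.25% in the sixth, 2.33% in the seventh and 0.402% in the brightest. The median range was 2.25-fold in the fifth part and 1.36-fold in the brightest. So a 4-fold range was common at the level of these 8 genes and rare at the level of bright transcripts.

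Within their own part the members differed in how many probe sets ranged as far. The members were chosen by their change on these arrays, so low shares follow from that choice and are given as a description. Ifna9, Zp1, the dimmer Prss32 probe set and Epor were matched or exceeded by 19.2%, 18.2%, 12.0% and 11.4% of the 1242 probe sets. Lsr, Prss30, Sftpc and Acsm2 were matched by 4.51%, 4.11%, 3.46% and 1.77%. The brighter probe sets of Hand1 and Aanat lay in the seventh part, where 1.37% and 1.53% ranged as far. Every array of these 2 was above 116.6, which held for none of the other 8 wide-ranging probe sets. With such ranges and a mean so near the filter, those 8 had to have an array under it.

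**Figure D2:**
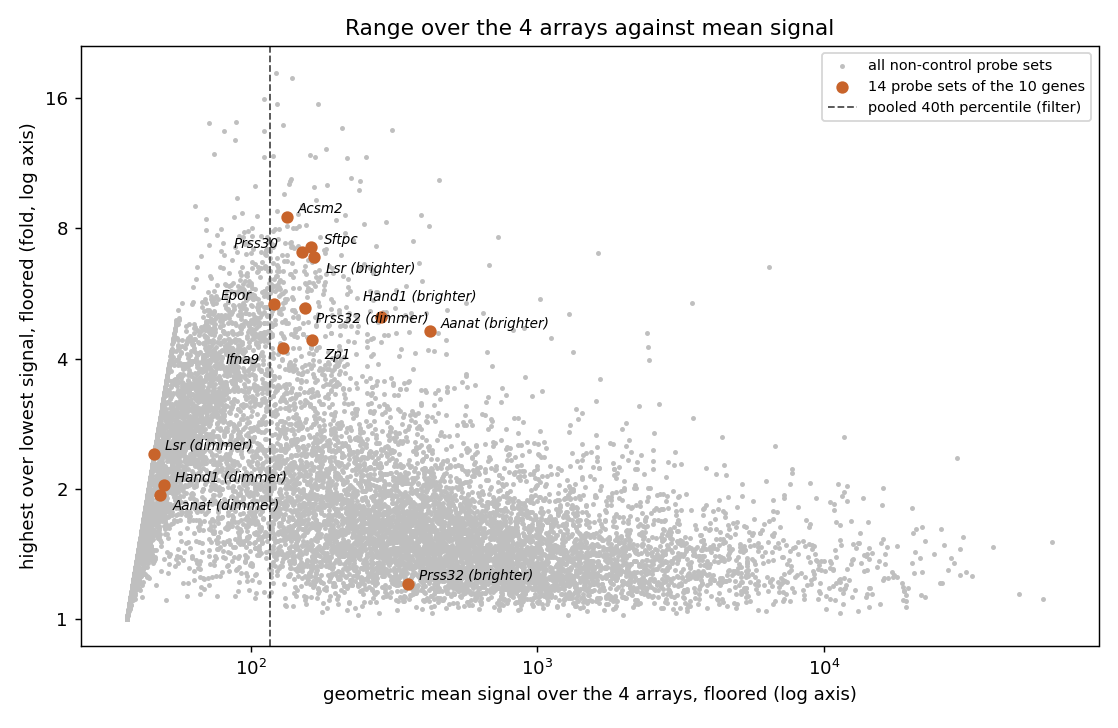
Highest over lowest floored signal on the 4 arrays (fold, log axis) against the geometric mean signal (log axis) for 12422 non-control probe sets in grey and the 14 probe sets of the 10 genes in orange; the dashed line is the filter at 116.6. The grey cloud is tallest near the filter and flattens to the right, and 8 of the orange points lie just right of the filter at ranges of 4.23 to 8.50-fold.

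A steady course over the hours was also found in other probe sets. Acsm2, Ifna9, Epor and Zp1 were higher on each later array, and so were 263 of the 7233 probe sets, or 3.64%, and 76 of the 1242 in the fifth part, or 6.12%. Xist, a transcript of the inactive X chromosome that male cells should lack, had 9.7, 47.7, 106 and 147 in these male mice. It too was higher on each later array, although it was too dim to pass the filter. The Y-linked gene Eif2s3y, which male tissue does express, had 159.9, 173, 142 and 199.

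A small share of probe sets resembled each member. A correlation of at least 0.95 with the widest-ranging probe set of a member was found for 115 to 411 of 7232 others. That is 1.59% to 5.68%, the most for Aanat. Over 4 arrays a high correlation arises easily, so these counts are no finding about the members. Nearest to Aanat by distance of centred log2 signals over the 4 arrays was Smyd2, a methyltransferase, with 698, 156.5, 718 and 518. The next was Fancc, a DNA repair gene, with 660.1, 159, 648.5 and 525. Smyd2 and Fancc were picked for a course like that of Aanat, so their low 2 h signal follows from that choice. Acsm2 and Zp1 were both near Mug-ps1, with 84.3, 167, 280.1 and 430.1, and the nearest to Ifna9 was Zp1 itself.

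The other members had neighbours of the same kind. Nearest to Sftpc was Pdzk1ip1 with 379.9, 205, 296 and 60.1, to Lsr Dnaaf5 with 277, 195, 49.9 and 227, and to Epor H2-M3 with 110.5, 195, 188 and 440.1. The nearest to Hand1 was Slc25a45 with 329, 91.7, 231 and 157. For the dimmer probe set of Prss32 it was Ip6k1, with 109, 50.7, 263 and 262, and for Prss30 Slc6a2, with 79.0, 156, 473 and 126. Of these, all had at least 1 array under 116.6, as did Mug-ps1, whereas Smyd2 and Fancc had none.

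Control probe sets showed what the array gives for transcripts that mouse tissue lacks. The 15 probe sets for bacterial transcripts (DapX, LysX, PheX, ThrX and TrpnX) had signals of 3.8 to 110.4, and 0 of their 60 values reached 116.6. Whether these transcripts were added is not stated, but the levels were low on every array. After flooring their range was at most 2.98-fold, and 0 of the 16 values of 4 yeast probe sets reached 116.6. The highest signal of the widest-ranging probe set of each gene, between 277 and 677, was above all of these. The genes were chosen by their change on these arrays, so a high array was to be found in them. The dimmer probe sets of Hand1, Aanat and Lsr reached 75.2, 71.4 and 89.0, under the highest bacterial value of 110.4. Before flooring the bacterial probe sets ranged up to 11.7-fold.

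Other control probe sets gave signals as high as those of the members. The 15 that face the opposite strand of control transcripts had signals of 11.9 to 748, with 46 of 60 values above the 40th percentile. Their floored range reached 3.84-fold, with 0 of 15 at 4-fold. The genes described here were chosen by their change on these arrays, so their wider ranges cannot be weighed against this. Most of these control probe sets belong to transcripts that are very abundant on the array, so they are not a plain blank.

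Other tissue-restricted genes, listed by the tissue they are known from, were mostly dim. The 8 lists were kidney and liver, interferons, proteases, oocyte, lung, heart and trophoblast, pineal and photoreceptor, and a mixed one from testis to skin. The mixed one also holds Xist, a transcript limited by sex and not by tissue. Of 143 genes in these lists, 65 were under the 40th percentile on all 4 arrays and 40 passed the filter. A range of at least 4-fold was found for 14 of the 143, or 9.79%, and for 6 of the 40 that passed, or 15.0%, beside 7.01% of all 12422 probe sets and 4.53% of those kept. The median range of the 40 was 1.82-fold, beside 1.54-fold over the 7233. The 6 had geometric means between 119 and 218, in the fifth and sixth parts by signal. There 21.1% and 7.25% of all probe sets ranged 4-fold. The shares and medians were not compared at equal signal, so they do not show that tissue-restricted genes range more widely. The widest of the 143 was 5.89-fold, and Acsm2, Sftpc, Prss30 and Lsr ranged more widely. The members were chosen by their change on these arrays and the 143 by tissue, so this difference is no finding about the members.

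The wide-ranging genes of these lists were high or low at different hours. Dct, a melanin enzyme, had 186, 203, 217 and 39.6, low at 6 h like Sftpc, and Pomc, a pituitary hormone precursor, had 58.2, 258, 262 and 50.7. The median log2 differences of the 40 genes against 1 h were 0.20, 0.06 and 0.04 at 2, 4 and 6 h, beside 0.00, 0.02 and 0.02 over all 7233. At 6 h 4 of the 40 were above 1 h by 2-fold or more and 4 were below it by as much. Some genes that mark other tissues gave brighter signals with a narrower range: Tff1, a stomach peptide, had 989 ± 123 (SD, n = 4), and Tnp1, a protein of sperm chromatin, had 838 ± 203 (SD, n = 4).

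**Figure D3:**
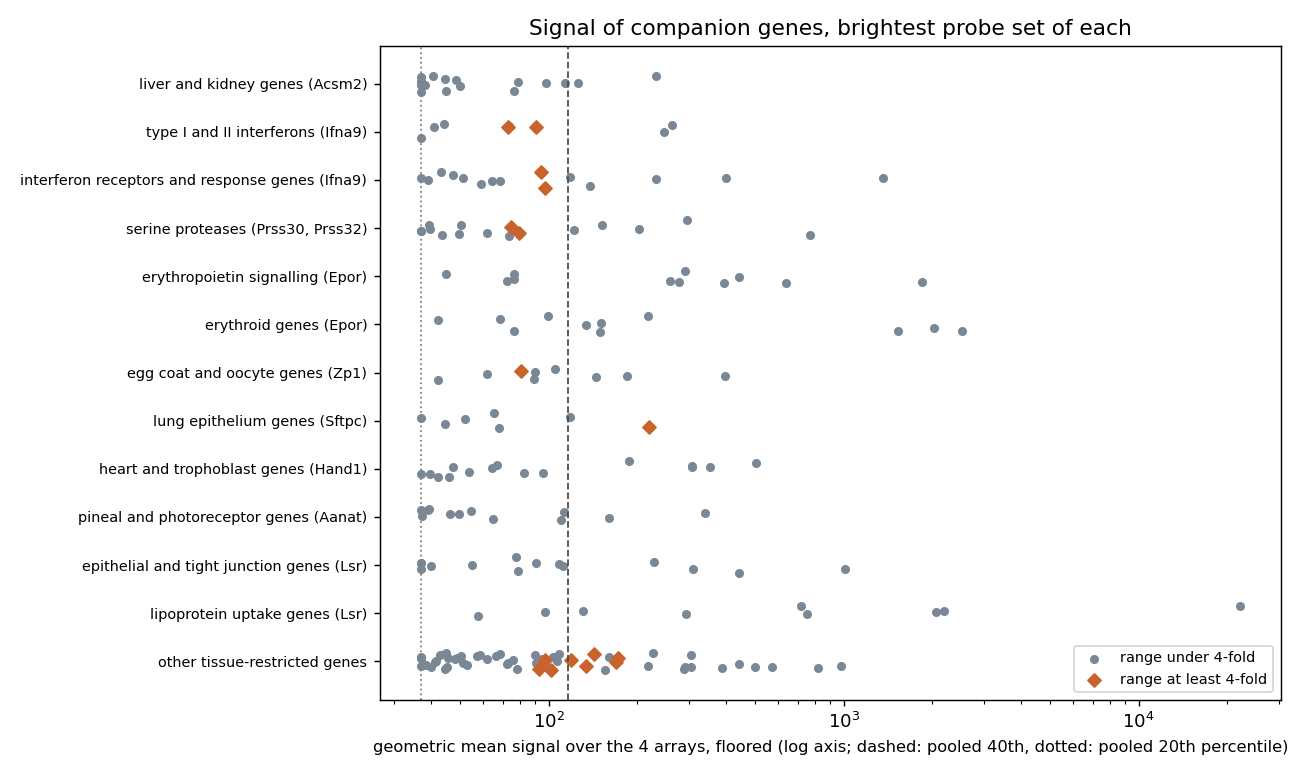
Geometric mean signal over the 4 arrays (log axis) of the brightest probe set of each gene in the 13 lists around the 10 genes, 1 row per list; the dashed and dotted lines are the pooled 40th and 20th percentiles. Orange diamonds mark a range of at least 4-fold and grey points a smaller one; most genes of the tissue lists lie left of the dashed line, and the diamonds lie near it.

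A 2-fold difference on a dimmer probe set was seldom matched in size on the brightest one of its gene, but bright probe sets seldom differed 2-fold at all. Among 985 dimmer probe sets that passed the filter, there were 362 differences of at least 2-fold at 2, 4 or 6 h against 1 h, counted over the 3 hours, all of which use the same 1 h array. The brightest probe set of the gene was 2-fold apart the same way in 18 of these, or 4.97%. By hour the share was 8.38% at 2 h, 1.11% at 4 h and 2.15% at 6 h. Of the brightest probe sets of all 985, 5.48%, 1.73% and 2.13% were 2-fold apart either way at these hours. The sign of the difference was the same on both probe sets for 102 of 179 such differences at 2 h, 54 of 90 at 4 h and 53 of 93 at 6 h. The dimmer probe set of Prss32, 3.27-fold higher at 4 h than at 1 h and 3.20-fold at 6 h, was among those without such a partner, since its brighter probe set ranged 1.21-fold. For Hand1, Aanat and Lsr it was the brighter probe set that swung, and the dimmer one was under the 40th percentile on every array.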

How the data were processed

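Total RNA of 4 CA1 samples, 1 per hour, was measured on Affymetrix mouse arrays. The deposited values are intensity signals, 1 per probe set and array; no source used here says how the authors computed them. After removal of 2% of values at each end the 4 array means averaged 500.3 and differed by 0.0062%, so each array appears scaled to 1 mean. Values were used as deposited. The floor and the filter were the pooled 20th and 40th percentiles of 12422 probe sets, after leaving out 66 controls. Symbols came from the platform annotation, updated through gene identifiers for 10817 of 10833 probe sets with 1 symbol. Another 396 had several symbols and 1193 none, and none of these is named. Lines over the hours were fitted with limma 3.58.1 (R 4.3.3, 2 residual degrees of freedom, trended prior). In simulated data with independent noise it called 82% of probe sets given a slope of 0.4 and 100% of those given 0.8. It also called 0.313% of those given none. Whether the real arrays have such noise was not tested. Counts and figures used Python 3.11.15 and pandas 2.3.3. In lists a gene entered through its brightest probe set. Genes named were all members, up to 4 per list (all passing the filter where 4 or fewer did, otherwise the 2 brightest and the 2 widest-ranging; in the larger lists not all are printed), and the 2 nearest probe sets of each member, of which the nearest is printed for most. The pooling of 8 lists was chosen after the values were seen, as were the list genes named that did not pass the filter. The members and lists were chosen with earlier results of these data known. Alternatives covered normalization, floor, filter, fold, time scale and leaving out each array. Probe sequences were not analysed here. No genome build goes with the values, so no coordinates are given.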

Additional observations from a re-analysis of the deposited data

How the results depend on the processing

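No paired analysis was possible because each hour has 1 array. The slope of the brighter Prss32 probe set was 0.02 ± 0.04 log2 per hour (SE of the line, 4 arrays), smaller than its error, so its sign means little. The slopes of Acsm2, Ifna9, Epor, Zp1, Sftpc and both Prss32 probe sets kept their sign under all 9 alternatives tried for each. So did that of the dimmer Aanat probe set, although it lay between -0.43 and -0.005 depending on the floor. Those of Prss30, both probe sets of Hand1, and the brighter ones of Aanat and Lsr did not. The brighter Aanat probe set had 0.10 log2 per hour but -0.08 without the 2 h array, and the brighter one of Hand1 -0.16 but 0.16 without 1 h. The brighter one of Lsr had -0.20 but 0.01 without 1 h. Prss30 had 0.03 but between -0.34 and 0.91 when 1 array was left out. The dimmer one of Lsr had -0.11, and 0 without the 2 h array, since its remaining values were all raised to the floor. Without the 6 h array the slope of Sftpc was -0.05 in place of -0.49 and that of Epor 0.26 in place of 0.45. A range of 4-fold or more was seen in 10 of the 14 probe sets, and in 5 to 8 when 1 array was left out, 5 without the 1 h array and 6 without the 6 h array. Limma called 0 probe sets under every alternative except without the 2 h array, where it called 32 (range 0 to 32); infinite prior degrees of freedom then replaced each probe set's own spread, from 1 residual degree of freedom. The number of probe sets at least 2-fold from 1 h was 736, 447 and 471 at 2, 4 and 6 h. It was 1732, 1573 and 1606 with no filter, 304, 76 and 74 with the filter at the 60th percentile, and 240, 161 and 163 at 3-fold. With that stricter filter 17 of the 143 tissue-restricted genes passed in place of 40.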
